A study of Lotus japonicus with 18 samples.

Results

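Phenylalanine ammonia-lyase (PAL) takes the amino group off phenylalanine and releases trans-cinnamate, the first step of phenylpropanoid metabolism. Cinnamate 4-hydroxylase (C4H) and 4-coumarate-CoA ligase (4CL) turn cinnamate into p-coumaroyl-CoA, from which plants make lignin, flavonoids and, in legumes, isoflavonoids and pterocarpans. PAL is encoded by a small gene family, and PAL genes of many plants are known to respond to wounding, pathogens and abiotic stress. The genes described here are LotjaGi3g1v0071500 and LotjaGi1g1v0690200 of the legume Lotus japonicus. They are 2 of 33994 entries in the deposited table of FPKM values (fragments per kilobase of gene model, scaled to the reads of the library), and 2 of the 10 entries described there as a phenylalanine ammonia-lyase. The pair was chosen by its change under salt in these same libraries, so its salt changes are given as a description, without a test.

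The 6 groups, in shoots, were plants of the Ljmyb36 mutant line 2 with salt and without, of the Ljmyb36 mutant line 1 with salt and without, and of the wild type (WT) with salt and without, with 3 libraries each, 18 in all. All plants were grown for 34 days and sampled 4 hours into the light period. Salt plants had NaCl added in steps of 50 mM every 4 days up to 100 mM and about 2 days at that level, and control plants had 0 mM. The labels name MYB36 but give neither the allele of each line nor which of the entries described as MYB36 is mutated. They do not say whether the 3 libraries of a group came from separate pots, so p-values measure the spread between these libraries.

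Multiplying FPKM by length recovered whole reads in 100% of nonzero cells (tolerance 0.05 of a read), and a library held from 42125949 to 101713201 of them. The 20 shoot marker genes, of photosynthesis, summed to at least 46730 FPKM in every library, and the 4 leghemoglobin genes of nodules to at most 0.257 FPKM. The 5 entries described as MYB36 summed to 6.07 to 7.37 FPKM in line 2 with salt, 7.39 to 9.73 in line 2 without, 5.71 to 8.28 in line 1 with salt, 7.72 to 10.03 in line 1 without, 2.62 to 3.65 in WT with salt and 8.28 to 9.32 in WT without. The first principal component of the deviations from group means held 30.8% of the variance, and its sign parted 9 libraries (the upper set) from 9 (the lower set), both sets being present in every group. The upper set held 2 libraries each of line 1 salt, line 1 control and WT control, and 1 each of the other groups. The lower set held the rest of each group. Line 1 salt library 3 lay farthest out, in the lower set.

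LotjaGi3g1v0071500 lies on the plus strand of chromosome 3, from base 7761246 to 7763697 in the coordinates of the deposited table, whose genome build is not given in the sources used here. The model is 2452 bases long, and the description, by similarity, is phenylalanine ammonia-lyase 1. With salt the gene had 0.304, 0.433 and 2.20 FPKM in the WT libraries, against 19.7, 14 and 21.5 FPKM in the WT libraries without salt. All 3 WT salt libraries were below all 3 WT control libraries, and the third of them stood above the other two. On the log2(FPKM + 0.5) scale, used for every change given here, salt minus control was -3.88 in WT, a 14.7-fold lower level of FPKM + 0.5. With a pseudocount of 0.1 it was -4.53, and with limma voom on recovered reads -4.72, so the size of the drop depends on how the low WT salt values are treated. In whole shoots, fewer cells that express a gene and less of its RNA per cell cannot be told apart.

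In line 2, LotjaGi3g1v0071500 had 2.75, 2.38 and 2.85 FPKM with salt and 1.41, 1.31 and 1.94 FPKM without. The line 2 groups did not overlap, the salt libraries being the higher, and the change was 0.63. The share of all entries tested whose line 2 groups part in this way was not counted. In line 1, the gene had 1.34, 1.69 and 6.94 FPKM with salt and 1.93, 2.11 and 1.76 FPKM without. There the groups overlapped: line 1 salt library 3 was high and the other two were below every line 1 control library. The change in line 1 was 0.36 with that library and -0.27 without it. The salt effect of the line minus that of WT came to 4.51 for line 2 and 4.24 for line 1.

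LotjaGi1g1v0690200 lies on the minus strand of chromosome 1, from base 125781156 to 125793805, and is also described as phenylalanine ammonia-lyase 1. Its model is 10818 bases long, longer than 99.3% of the entries in the table, and may join more than a single PAL transcript, which was not tested. Its FPKM is a level per kilobase of that model, so levels, ratios, sums and shares that use it depend on a length in doubt. In WT it had 4.28, 3.31 and 3.80 FPKM with salt, against 28.8, 27.6 and 39.2 FPKM without. These groups were wide apart, and the change was -2.90, a 7.47-fold lower level. In line 2 it had 13.9, 12.4 and 12.3 FPKM with salt and 11.1, 11.9 and 12.5 FPKM without. In line 1 it had 10.3, 12.7 and 13.0 FPKM with salt and 11.2, 12.1 and 11.6 FPKM without. Within each line the salt and control libraries overlapped, with changes of 0.11 in line 2 and 0.04 in line 1. The salt effect of the line minus that of WT came to 3.01 for line 2 and 2.94 for line 1.

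**Figure D1:**
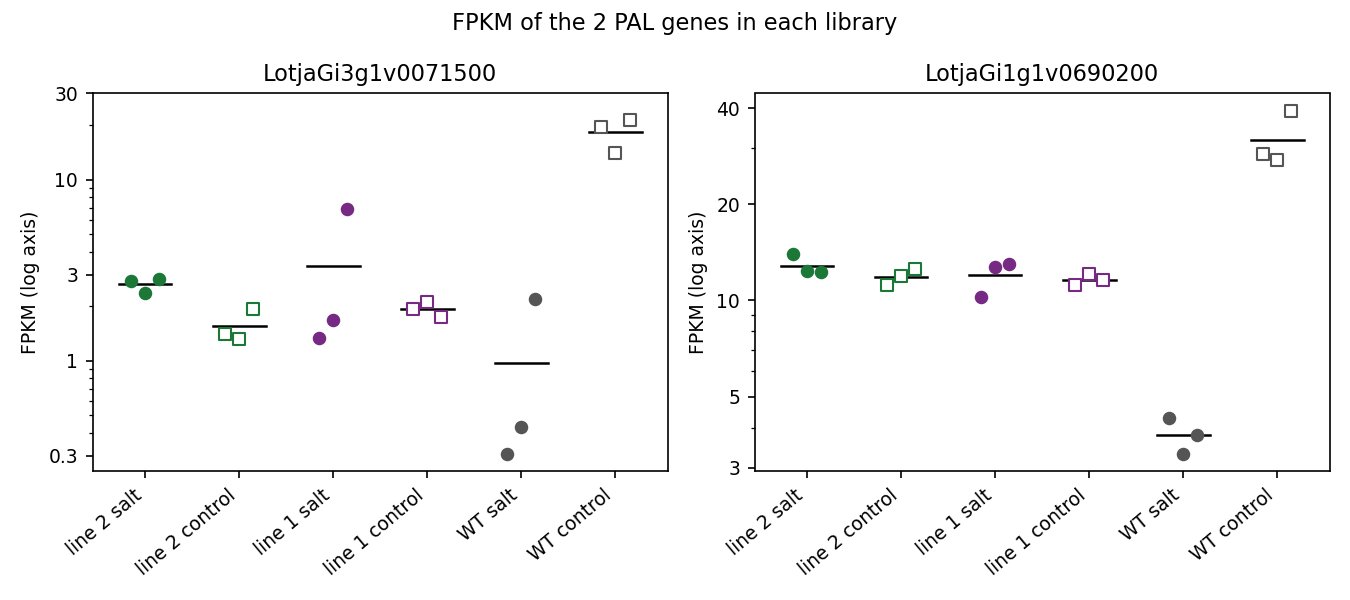
FPKM (log axis) of LotjaGi3g1v0071500 and LotjaGi1g1v0690200 in each library of the 6 groups; filled circles are salt libraries, open squares control libraries, and a line marks the group mean. WT without salt is the highest group and WT with salt the lowest by mean in both panels, with the 4 groups of the lines between them.

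By group, LotjaGi3g1v0071500 averaged 2.66 ± 0.245 FPKM in line 2 salt, 1.56 ± 0.338 in line 2 control, 3.32 ± 3.14 in line 1 salt, 1.93 ± 0.176 in line 1 control, 0.977 ± 1.06 in WT salt and 18.4 ± 3.93 in WT control (SD, n = 3 each). The means ran, from high to low, WT control, line 1 salt, line 2 salt, line 1 control, line 2 control and WT salt. Only WT control lay apart from every other group, and the WT salt library with 2.20 FPKM fell among the libraries of the lines. LotjaGi1g1v0690200 averaged 12.9 ± 0.927 FPKM in line 2 salt, 11.9 ± 0.687 in line 2 control, 12 ± 1.5 in line 1 salt, 11.6 ± 0.461 in line 1 control, 3.80 ± 0.486 in WT salt and 31.9 ± 6.41 in WT control (SD, n = 3 each). Here the order from high to low was WT control, line 2 salt, line 1 salt, line 2 control, line 1 control and WT salt. For this gene both WT groups lay apart from the rest, and the ranges of line 1 salt and line 2 control each overlapped those of their neighbours in the order. Depth differed between the genes: LotjaGi3g1v0071500 rested on 49 to 447 reads in WT salt, where counting error was 14.3% at the lowest library and the spread between libraries 108% of the mean. LotjaGi1g1v0690200 had at least 2835 reads in every library.

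Between genotypes, both genes were lower in the lines than in WT without salt, and LotjaGi1g1v0690200 was higher in the lines than in WT under salt. These contrasts were tested with limma (two-sided, Benjamini-Hochberg adjustment over the 20433 entries tested, threshold 0.05). They use the same WT libraries as the salt contrast that chose the pair, and so are not independent of the choice.

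Without salt, LotjaGi3g1v0071500 was lower by log2 3.19 in line 2 than in WT (change -3.19, 95% interval -4.13 to -2.25, limma adjusted p = 1.09e-04). In line 1 against WT the change was -2.94 (95% interval -3.88 to -2.0, limma adjusted p = 2.75e-04). All 6 libraries of the lines without salt, at 1.31 to 2.11 FPKM, were below the lowest WT control library at 14 FPKM. LotjaGi1g1v0690200 changed by -1.37 in line 2 against WT (95% interval -1.65 to -1.10, limma adjusted p = 1.86e-06) and by -1.40 in line 1 against WT (95% interval -1.68 to -1.12, limma adjusted p = 1.78e-06). Its 6 line libraries, at 11.1 to 12.5 FPKM, were below the lowest WT control library at 27.6 FPKM. Of all entries tested, 5.35% were lower and 7.22% higher in line 2 than in WT without salt, and 4.31% were lower and 7.37% higher in line 1.

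Under salt, LotjaGi1g1v0690200 was higher in line 2 than in WT by 1.64 (95% interval 1.36 to 1.92, limma adjusted p = 1.10e-07) and higher in line 1 than in WT by 1.54 (95% interval 1.26 to 1.82, limma adjusted p = 2.76e-07). All 6 libraries of the lines with salt, at 10.3 to 13.9 FPKM, were above the highest WT salt library at 4.28 FPKM. LotjaGi3g1v0071500 differed by 1.32 in line 2 against WT (95% interval 0.38 to 2.26, limma adjusted p = 0.0381). The groups did not overlap, the lowest line 2 salt library having 2.38 FPKM and the highest WT salt library 2.20 FPKM. That call was lost when any of 5 of the 6 libraries was left out, all but WT salt library 3, with limma adjusted p up to 0.152. In line 1 against WT the change was 1.30 (95% interval 0.36 to 2.23) and did not pass the threshold (limma adjusted p = 0.0575). The call turned on single libraries: the change was 0.67 without line 1 salt library 3 (limma adjusted p = 0.257) and 1.84 without WT salt library 3, when it passed (limma adjusted p = 0.00596). It also passed, at 1.68, without line 1 salt library 1 (limma adjusted p = 0.0224), and without the other 3 libraries it ranged from 0.97 to 1.55 and did not pass. With the library set as a term it was 1.46 and passed (limma adjusted p = 0.0209), and within the lower and the upper set it was 2.23 and 1.32, values with no test. Line 1 salt had only library 3 in the lower set, and WT salt only library 1 in the upper. In this condition 14.9% of the entries tested were higher and 10.2% lower in line 2 than in WT, and 11.2% were higher and 4.77% lower in line 1. Under quantile normalization the split of calls was 2412 higher and 2973 lower in line 2, and 1806 higher and 1817 lower in line 1.

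Line 2 and line 1 were not told apart by either gene. For LotjaGi3g1v0071500, line 2 minus line 1 was 0.02 under salt (95% interval -0.92 to 0.96, limma adjusted p = 0.991) and -0.25 without salt (95% interval -1.19 to 0.69, limma adjusted p = 0.9998). For LotjaGi1g1v0690200 the difference was 0.10 under salt (95% interval -0.18 to 0.38, limma adjusted p = 0.806) and 0.03 without salt (95% interval -0.25 to 0.30, limma adjusted p = 0.9998). Differences within these intervals could not be seen with 3 libraries a group. Few genes differed between the lines at all: 0.92% of the entries tested were higher and 0.817% lower in line 2 under salt, and 0.0636% were higher and 0.0832% lower without salt.

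**Figure D2:**
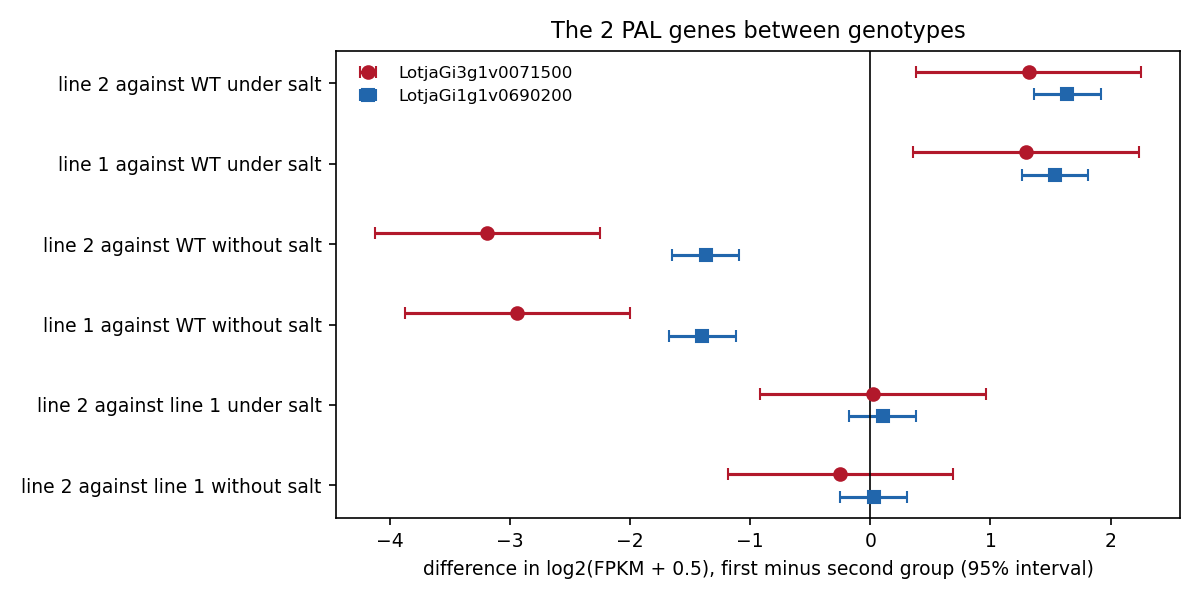
Difference in log2(FPKM + 0.5) between genotypes, first minus second group, with 95% intervals of the limma fit; circles are LotjaGi3g1v0071500 and squares LotjaGi1g1v0690200. Both genes lie left of 0 in the lines against WT without salt and right of 0 under salt, and their intervals span 0 between the lines.

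The 2 genes differed in proportion. The FPKM of LotjaGi1g1v0690200 over that of LotjaGi3g1v0071500 was 5.07, 5.20 and 4.31 in the line 2 libraries with salt, against 7.88, 9.08 and 6.44 in those without. In line 1 it was 7.68, 7.54 and 1.87 with salt and 5.80, 5.74 and 6.60 without. In WT it was 14.1, 7.65 and 1.73 with salt and 1.46, 1.97 and 1.82 without. WT control libraries thus had a ratio under 2, as did WT salt library 3 and line 1 salt library 3, and the other libraries lay above 4. Both of those salt libraries and WT control library 1 belonged to the lower library set, whose other libraries lay above 4. WT control libraries 2 and 3 belonged to the upper set. The part of the sets in the result was not tested. Across the 18 libraries Pearson's r between the genes was 0.847 on the log2 scale, and over deviations from the group means 0.340. The libraries share groups and scaling, so this is a description.

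Each of the 2 genes had a further PAL entry close by on the opposite strand. An assembled PAL transcript (chromosome 3, minus strand, 7771118 to 7777006) lay 7420 bases beyond LotjaGi3g1v0071500, with 1 entry between them, and carried the aromatic amino acid lyase domain. It had 2.73, 4.00 and 3.87 FPKM in line 2 salt and 2.87, 2.54 and 2.84 in line 2 control. In line 1 it had 1.86, 2.73 and 9.04 FPKM with salt and 3.38, 2.89 and 2.82 without. In WT it had 1.04, 0.557 and 3.15 FPKM with salt, against 25.4, 18.9 and 31.1 without. The libraries that stood high for LotjaGi3g1v0071500, WT salt library 3 and line 1 salt library 3, were also the highest of their groups for the transcript. It fell with salt in WT by 3.80 (limma adjusted p = 5.79e-06) and was lower without salt in line 2 than in WT (-2.96, limma adjusted p = 1.74e-04) and in line 1 than in WT (-2.84, limma adjusted p = 2.95e-04). Under salt neither contrast with WT passed (1.14 in line 2, limma adjusted p = 0.0636, and 1.2 in line 1, limma adjusted p = 0.0697).

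LotjaGi1g1v0690300 (chromosome 1, plus strand, 125802348 to 125828613) lay 8542 bases from LotjaGi1g1v0690200 with 0 entries between. It is described as phenylalanine ammonia-lyase 1, but its 16850-base model, longer than 99.8% of entries and with the same doubt about its length, carries a GAG-pre-integrase domain, which is known from retrotransposons. It averaged 5.45 ± 0.511 FPKM in line 2 salt and 4.25 ± 0.276 in line 2 control, 5.21 ± 0.846 in line 1 salt and 4.95 ± 0.127 in line 1 control, and 2.58 ± 0.360 in WT salt and 13.8 ± 1.29 in WT control (SD, n = 3 each). It fell with salt in WT by 2.21 (limma adjusted p = 2.68e-09). Without salt it was lower in line 2 than in WT (-1.59, limma adjusted p = 1.90e-07) and in line 1 than in WT (-1.38, limma adjusted p = 1.08e-06). Under salt it was higher in line 2 (0.95, limma adjusted p = 2.32e-05) and in line 1 (0.89, limma adjusted p = 6.51e-05). The pair and these neighbours carry the same description, and how the counting treated reads that match several of them is not given.

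**Figure D3:**
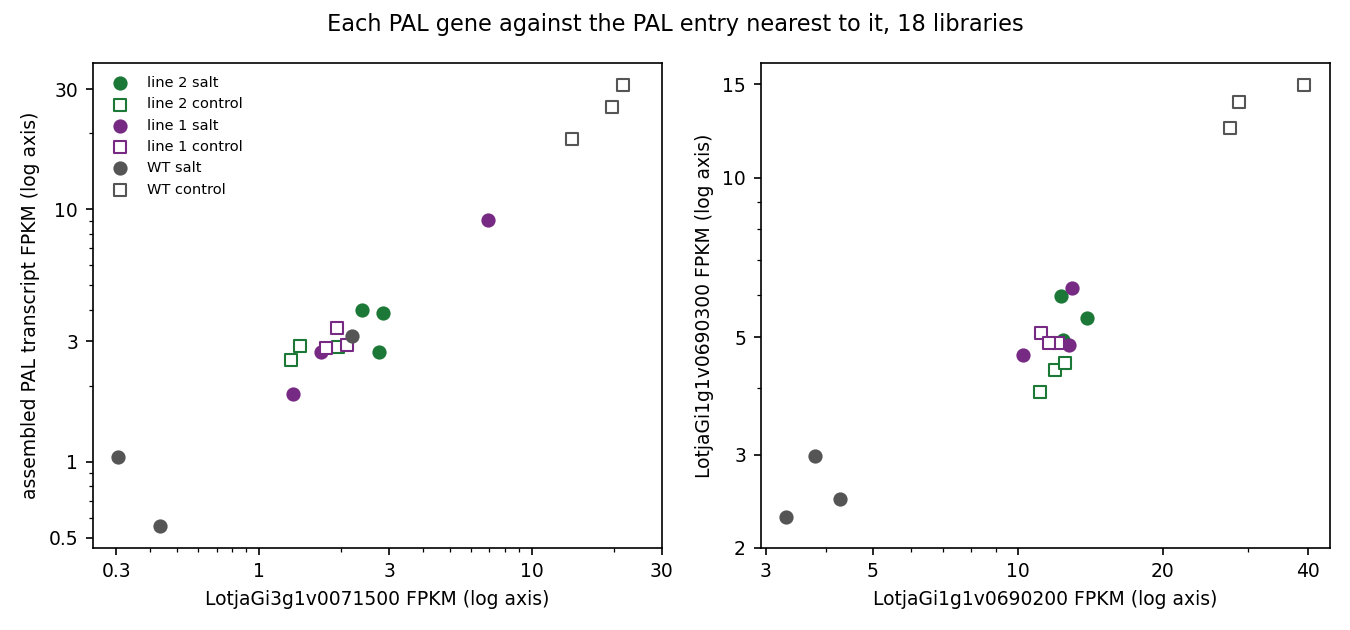
FPKM (log axes) of the assembled PAL transcript against LotjaGi3g1v0071500 and of LotjaGi1g1v0690300 against LotjaGi1g1v0690200, a point for each of the 18 libraries; filled circles are salt and open squares control. In both panels the WT control libraries sit at the top right and the lowest points are WT salt libraries; on the left, line 1 salt library 3 lies highest of the lines at 6.94 and 9.04 FPKM.

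Of the 5 other nearest described entries that were tested, 0 were called lower with salt in WT, where 9.91% of all entries tested were. So few entries cannot be told apart from that share. On chromosome 3, LotjaGi3g1v0071600, described as a hydroquinone glucosyltransferase, averaged 1.16 FPKM in line 2 salt and 3.68 FPKM in WT salt, and was lower in line 2 by 1.32 (limma adjusted p = 0.0121), a call lost without WT salt library 3 or line 2 salt library 3. LotjaGi3g1v0071300, described as ENHANCED DOWNY MILDEW 2, was lower under salt in line 2 (-0.90, limma adjusted p = 8.01e-04) and in line 1 (-0.70, limma adjusted p = 0.00834) than in WT. It rose with salt in WT by 0.59 (limma adjusted p = 0.0205, a call lost under 4 of 18 alternatives). On chromosome 1, LotjaGi1g1v0690000, described as the jasmonate enzyme allene oxide cyclase, rose with salt in WT by 1.74 (limma adjusted p = 0.0063), to 4.05 FPKM with salt against 0.745 without. Under salt it was lower in line 1 than in WT (-1.33, limma adjusted p = 0.0365, a call lost under 8 of 18 alternatives). LotjaGi1g1v0690100, described as helicase protein MOM1, was lower under salt in line 2 than in WT (-0.67, limma adjusted p = 0.0211, a call lost under 5 of 18 alternatives). LotjaGi1g1v0690600, described as the ethylene signalling protein EIN2, passed in none of the salt or line-to-WT contrasts.

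Among the remaining PAL entries LotjaGi5g1v0080000 had the highest level. It averaged 122 FPKM in line 2 salt and 91.6 in line 2 control, 140 in line 1 salt and 92.3 in line 1 control, and 95.5 in WT salt and 81.6 in WT control. It rose with salt in line 1 by 0.60 (limma adjusted p = 0.00382) and in line 2 by 0.41 (limma adjusted p = 0.0416, a call lost when any of the 6 line 2 libraries was left out). Under salt it was higher than in WT by 0.36 in line 2 (limma adjusted p = 0.0341, a call lost without WT salt library 2 or 3 or line 2 salt library 1 or 2) and by 0.56 in line 1 (limma adjusted p = 0.00345). In WT the change was 0.22 (limma adjusted p = 0.256). The difference between the salt effects of the lines and of WT did not pass (0.19 for line 2, limma adjusted p = 0.563, and 0.38 for line 1, limma adjusted p = 0.315). LotjaGi5g1v0272900, described as phenylalanine ammonia-lyase 2, rose with salt in WT by 0.55 (limma adjusted p = 0.00234), at 32.1 FPKM with salt and 21.7 without.

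LotjaGi6g1v0093700 was a low PAL gene that was higher in both lines than in WT under salt. It had 8.68, 4.75 and 4.53 FPKM in line 2 salt and 3.41, 3.74 and 3.88 FPKM in line 1 salt, against 0.931, 1.14 and 0.304 FPKM in WT salt. The difference was 2.34 for line 2 (limma adjusted p = 5.62e-05) and 1.76 for line 1 (limma adjusted p = 0.00115), and no library of either line overlapped WT. LotjaGi1g1v0004100 passed in none of the salt or line-to-WT contrasts, LotjaGi5g1v0102000 was under the filter with a mean of 0.345 FPKM, and LotjaGi1g1v0004200, which overlaps LotjaGi1g1v0004100, was listed at 0 in all 18 libraries.

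Counted over the family without the pair, 6 of 8 entries were tested. With salt, 1 rose in line 2 and 1 in line 1, while none fell in those lines. In WT 1 rose and 2 fell with salt. The background was 4.24% higher and 4.42% lower in line 2, 4.19% higher and 4.42% lower in line 1, and 6.35% higher and 9.91% lower in WT. The entries that fell in WT were the assembled transcript and LotjaGi1g1v0690300. The same entries were the 2 that were lower without salt in line 2 and in line 1, where 0 were higher. Of all entries tested, 5.35% were lower and 7.22% higher in line 2 without salt, and 4.31% and 7.37% in line 1. Under salt LotjaGi5g1v0080000, LotjaGi6g1v0093700 and LotjaGi1g1v0690300 were the 3 higher in line 2 and in line 1 than in WT, and 0 were lower. The shares of all entries under salt were 14.9% higher and 10.2% lower in line 2, and 11.2% and 4.77% in line 1. Median changes with salt were 0.31 in line 2, 0.24 in line 1 and -0.19 in WT, against 0.01 over all genes tested in each.

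Summed over the 10 entries, PAL had 185 ± 13.2 FPKM in line 2 salt and 142 ± 3.63 in line 2 control, 203 ± 6.22 in line 1 salt and 146 ± 13.5 in line 1 control, and 141 ± 17.1 in WT salt and 197 ± 7.97 in WT control (SD, n = 3 each). The salt and control ranges did not overlap in any genotype, and the salt group was the higher in both lines and the lower in WT. The sums were not tested, since they hold the pair. The chosen pair and the entries next to them together summed to 24.5 ± 0.684 FPKM in line 2 salt and 20.4 ± 1.23 in line 2 control, 25.1 ± 8.94 in line 1 salt and 21.5 ± 0.479 in line 1 control, and 8.94 ± 2.87 in WT salt and 89.2 ± 17.0 in WT control. The 6 other entries summed to 160 ± 13.7 FPKM in line 2 salt and 121 ± 3.20 in line 2 control, 178 ± 11.1 in line 1 salt and 124 ± 13.4 in line 1 control, and 132 ± 18.5 in WT salt and 108 ± 11.5 in WT control.

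The pair made up 8.43% ± 0.773 of the summed PAL FPKM in line 2 salt and 9.47% ± 0.581 in line 2 control, 7.56% ± 2.11 in line 1 salt and 9.34% ± 0.585 in line 1 control, and 3.45% ± 1.07 in WT salt and 25.4% ± 4.02 in WT control (SD, n = 3 each). Counted as reads, which does not divide by model length, the share was 18.3% in line 2 salt and 20.9% in line 2 control, 16.2% in line 1 salt and 19.98% in line 1 control, and 7.85% in WT salt and 36.1% in WT control. The order of the WT groups at the ends and the lines between them was the same on both scales. A longer model collects more reads, so the read share does not remove the doubt about the length of LotjaGi1g1v0690200. In WT control that gene had 16.1% of the PAL FPKM and 31.9% of the PAL reads.

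**Figure D4:**
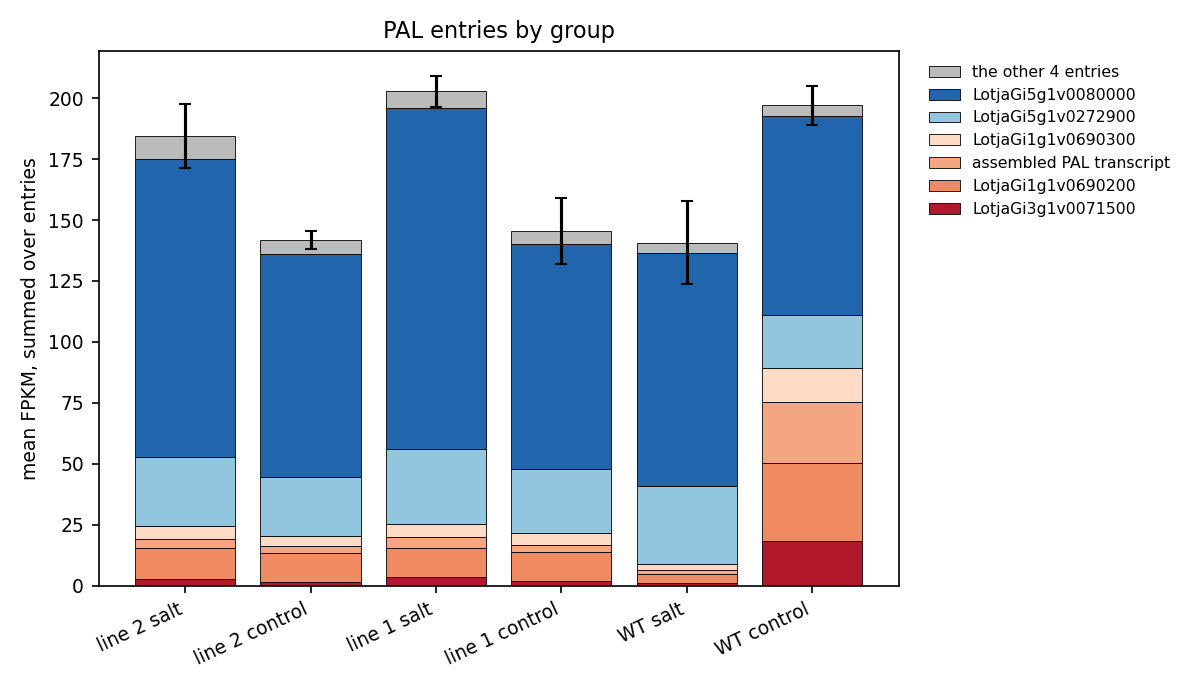
Mean FPKM of the PAL entries stacked by group (n = 3 each), with the SD of the summed FPKM as error bar. The red and orange blocks, the 2 genes and the entries next to them, sum to 8.94 FPKM in WT with salt and 89.2 in WT without, while LotjaGi5g1v0080000, in dark blue, is the largest block in each group.

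Among the C4H and 4CL entries, which follow PAL, the lowest change with salt in WT was -0.95. C4H, which hydroxylates cinnamate, had 2 entries, and neither passed with salt in WT. LotjaGi1g1v0106100, the higher of them, rose with salt in line 1 by 0.62 (limma adjusted p = 9.13e-04), with 75.9 FPKM with salt and 49.3 without. Under salt it was higher than in WT by 0.30 in line 2 (limma adjusted p = 0.0442, a call lost under 8 of 19 alternatives) and by 0.51 in line 1 (limma adjusted p = 0.00229). Without salt it was lower in line 1 than in WT, by 0.35 (change -0.35, limma adjusted p = 0.0378, a call lost under 7 of 19 alternatives, among them without any of the WT control libraries).

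4CL, which joins coumarate to coenzyme A, had 6 entries of which 4 were tested. With salt 1 rose in line 2 and 2 in line 1, with none lower, and in WT there were 3 that rose beside 1 that fell. Over all entries tested, 4.24% rose and 4.42% fell in line 2, and 4.19% and 4.42% in line 1. In WT 6.35% rose and 9.91% fell. Of the 3 that rose in WT, LotjaGi4g1v0299500 (0.50, limma adjusted p = 0.0109) lost its call without WT control library 3 or WT salt library 1 or 2. LotjaGi3g1v0001800 (0.41, limma adjusted p = 0.0273) lost it without WT control library 2 or 3 or WT salt library 1 or 3. LotjaGi2g1v0450000 was the one that fell in WT, by 0.95 (limma adjusted p = 9.07e-07), with 24.0 FPKM with salt and 46.9 without. Like the chosen pair it was lower without salt in line 2 than in WT (-0.81, limma adjusted p = 1.22e-05) and in line 1 than in WT (-0.59, limma adjusted p = 3.35e-04). Under salt it was higher in line 1 (0.37, limma adjusted p = 0.0106, a call lost under scaling to the gene total and quantile normalization), and line 2 did not pass (0.06, limma adjusted p = 0.671). LotjaGi3g1v0342800 rose in all 3 genotypes, by 0.50 in line 2, 0.70 in line 1 and 0.84 in WT (limma adjusted p = 0.00632, 2.37e-04 and 8.87e-06). Its line 2 call was lost under scaling to the gene total.

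**Figure D5:**
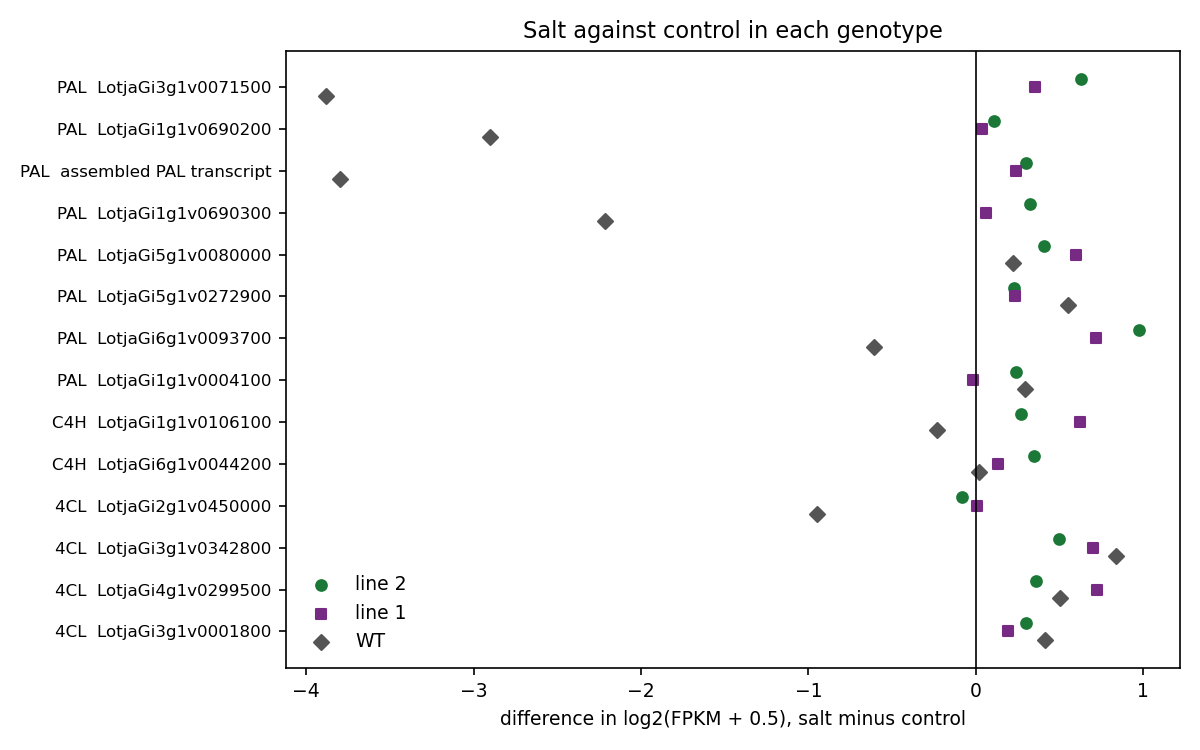
Difference in log2(FPKM + 0.5), salt minus control, for the tested PAL, C4H and 4CL entries in line 2 (circles), line 1 (squares) and WT (diamonds). The WT points of LotjaGi3g1v0071500 at -3.88 and LotjaGi1g1v0690200 at -2.90, with those of the PAL entries beside them, lie far to the left, and LotjaGi2g1v0450000 is the other entry with a WT point near -1.

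Enzymes that supply phenylalanine, from the shikimate pathway and through arogenate, had 1 that rose and 2 that fell in WT with salt, of 18 tested, a share near that of all entries (6.35% and 9.91%), with a median of 0.02. Under salt 7 were higher and 2 lower in line 2 than in WT, where 14.9% and 10.2% of all entries were, and 4 were higher and 1 lower in line 1, where 11.2% and 4.77% were. F-box/kelch-repeat proteins, which in Arabidopsis bind PAL enzymes and direct them to breakdown, had 3 entries. LotjaGi3g1v0015100 fell with salt in WT by 1.61 (limma adjusted p = 1.98e-04), with 11.9 FPKM with salt and 37.4 without. It was higher under salt in line 2 than in WT by 1.12 (limma adjusted p = 0.004), and in line 1 by 0.89 (limma adjusted p = 0.0242, a call lost without library 2 or 3 of either group). The other entries passed in none of the salt or line-to-WT contrasts. LotjaGi3g1v0361800, with the same description, had 31.6 FPKM with salt and 34.5 without in WT. LotjaGi4g1v0375000 had 0.74 FPKM in both WT groups.

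Of the branches beyond p-coumaroyl-CoA, the isoflavonoid list had the largest share of lower genes in WT with salt among the lists counted here. With salt 2 of 28 tested rose in line 2, 1 fell in line 1, and 17 fell in WT, where none rose and the median was -1.68. Over all entries tested, the shares higher and lower with salt were 4.24% and 4.42% in line 2, 4.19% and 4.42% in line 1, and 6.35% and 9.91% in WT. Under salt 24 were higher in line 2 than in WT and 21 in line 1, with 0 lower in both, against 14.9% and 11.2% higher over all entries. Without salt the isoflavonoid calls against WT went both ways, 6 higher and 10 lower in line 2 and 6 higher and 9 lower in line 1. Over all entries the shares without salt were 7.22% higher and 5.35% lower in line 2, and 7.37% and 4.31% in line 1. Among the flavonoid core genes, 37 tested, line 2 had 1 higher with salt, line 1 had 2 higher and 2 lower, and WT had 1 higher and 16 lower with a median of -0.43. Against WT under salt, 16 of them were higher and 3 lower in line 2, and 15 higher and 4 lower in line 1. Without salt 6 were higher and 13 lower in line 2, and 3 higher and 11 lower in line 1. The lignin branch, 30 tested, had 3 up and 3 down with salt in line 2, 3 up and 2 down in line 1, and 2 up and 4 down in WT, a median of 0.02, the WT counts being near the share of all entries. Between genotypes more of its genes were called. Against WT under salt, 11 were higher and 1 lower in line 2, and 10 higher and 0 lower in line 1. Without salt 7 were higher and 0 lower in each line. None of the genes in these lists passed in line 2 against line 1 in either condition, and the members of the isoflavonoid and flavonoid lists were known from earlier results to change.

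Likeness to each gene was ranked by Pearson's r of log2(FPKM + 0.5) over the 18 libraries, which share 6 groups and their scaling, among genes that had a description and averaged 5 FPKM or more. For LotjaGi3g1v0071500, out of 10420 genes, the assembled PAL transcript beside it was first (r = 0.986). Then came LotjaGi1g1v0323300, described as amino acid permease 2 (0.962), LotjaGi2g1v0447000, a chalcone synthase (0.957), and LotjaGi1g1v0690300 (0.954). The lowest was LotjaGi6g1v0297300, described as stem-specific protein TSJT1 (-0.902). Within groups, over deviations from the means, LotjaGi3g1v0071500 and the transcript still had r = 0.925, and LotjaGi3g1v0071500 and LotjaGi1g1v0690300 had r = 0.866.

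For LotjaGi1g1v0690200, out of 10419 genes, the nearest was LotjaGi4g1v0146200, described as an isoflavone reductase homolog (r = 0.991). It averaged 29.1 FPKM in line 2 salt and 28.1 in line 2 control, 31.1 in line 1 salt and 27.6 in line 1 control, and 9.69 in WT salt and 78.6 in WT control. Next were the chalcone synthases LotjaGi1g1v0470800 (0.988) and LotjaGi2g1v0446700 (0.986), the 6'-deoxychalcone synthase LotjaGi1g1v0006500 (0.985) and the 2-hydroxyisoflavanone synthase LotjaGi4g1v0063900 (0.983), enzymes of chalcone and isoflavone synthesis. Within groups the r with LotjaGi4g1v0146200 was 0.931 and that with its neighbour LotjaGi1g1v0690300 was 0.531. Of all genes ranked, LotjaGi2g1v0291600, described as BIG GRAIN 1-like E, was lowest (-0.947).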

How the data were processed

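Shoot poly(A) RNA of 18 libraries was sequenced. Per the submitters' processing notes, the tools were fastp, featureCounts 1.5.0-p3 and DESeq2 1.20.0. Aligner, genome build and strand setting: not given in the sources used here. The authors deposited FPKM values per gene. Names come from the descriptions in the deposited table, which are by similarity, and 0 identifiers matched the RefSeq gene table.

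From these, log2(FPKM + 0.5) was fitted with limma 3.58.1 in R 4.3.3 (eBayes, trend, 6 group means, 12 residual degrees of freedom) for the 20433 entries that reached 1 FPKM in 3 or more libraries. This scale understates changes of low genes. The fit was also run on simulated counts of independent libraries without library sets, so that run does not bear on the spread seen here. Named genes were the PAL, C4H, 4CL and F-box entries, the nearest described entries, the 2 highest genes of other lists and the 5 most and 3 least alike genes, of which the text names a part. The members and lists were chosen with earlier results of these data known. Replicate numbers were not shown to pair the libraries, so the reported fit had no block. Deviations from group means of same-numbered libraries had r from -0.31 to 0.48 between compared groups. Alternatives were other pseudocounts, filters, scalings and weights, the replicate block, library sets, limma voom on recovered reads and leaving out each library.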

Additional observations from a re-analysis of the deposited data

Results flagged for a closer look

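LotjaGi3g1v0071500 moved in opposite directions with salt in line 2 and in WT. Every line 2 salt library lay above every line 2 control library, and every WT salt library lay below every WT control library. The line 2 change was 0.63, at 1.31 to 2.85 FPKM, and 0.24 within the upper library set, with 1 library in each group. In line 1 the groups overlapped, with a change of 0.36, or -0.27 without line 1 salt library 3. The share of all entries tested that part in this way was not counted. The salt effect of line 2 minus that of WT was 4.51 on the log2 scale, and it was not tested, because salt chose the gene.

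Among the other PAL entries, the salt effect of the line minus that of WT passed in limma for the assembled transcript beside LotjaGi3g1v0071500, at 4.09 for line 2 (adjusted p = 3.29e-04) and 4.04 for line 1 (adjusted p = 5.64e-04). For LotjaGi1g1v0690300 it was 2.54 for line 2 (limma adjusted p = 2.29e-07) and 2.27 for line 1 (limma adjusted p = 9.62e-07). For LotjaGi6g1v0093700 it was 1.58 for line 2 (limma adjusted p = 0.0429), while line 1, at 1.32, did not pass (limma adjusted p = 0.157).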

How the results depend on the processing

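Over 369 recomputed values of the 2 genes, 334 kept direction and side of the threshold, or for untested changes stayed within the spread. That count is no measure of robustness. The filters, only the compared groups, the replicate block and a robust eBayes step cannot alter the size of a change here. For untested changes their agreement was thus fixed beforehand. The line 1 salt change of LotjaGi3g1v0071500, -0.061 with array weights, also counted as within the spread. The cause of the others was not tested. For LotjaGi3g1v0071500 salt minus control in WT was -4.53 with a pseudocount of 0.1 and -4.72 with limma voom on recovered reads. In line 1 it was 1.62 within the lower library set and -0.27 within the upper, and -0.27 to 0.73 with 1 library left out. Line 1 salt had only library 3 in the lower set, so its values within that set, here and below, rest on that library. Line 1 against WT under salt was 1.73 with a pseudocount of 0.1 (limma adjusted p = 0.0432), 1.07 with array weights (limma adjusted p = 0.00825), 1.46 with the library set as a term (limma adjusted p = 0.0209), 2.23 within the lower set and 0.67 to 1.84 with 1 library left out. With the replicate block it was 1.30 (limma adjusted p = 0.0238); the block changed no other call of the 2 genes, and replicate numbers were not shown to mark a shared pot or day. Line 2 against WT under salt lost its call with a pseudocount of 1 (1.01), no filter (1.32), only the compared groups (1.32) and quantile normalization (1.12), and ranged from 0.99 to 1.87 with 1 library left out. Line 2 against line 1 under salt was -0.011 with a pseudocount of 1, -0.14 with the set term, -1.17 within the lower set and -0.36 to 0.65 with 1 library left out. A mean FPKM of at least 5 left LotjaGi3g1v0071500 out.

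For LotjaGi1g1v0690200 every call held. Salt minus control was -3.10 with array weights and -3.09 with voom in WT, and 0.21 within the lower set in line 1. Line 2 against WT under salt was 1.43 within the upper set, with 1 library in each group. Line 1 against WT under salt was 1.74 within the lower and 1.32 within the upper. Line 2 against line 1 ranged from -0.011 to 0.069 without salt and from -0.0028 to 0.16 under salt with 1 library left out. Of 91 calls of other named genes, 72 held under every alternative run. LotjaGi3g1v0071500 in WT salt was limited by the spread between libraries, 108% of the mean, more than by depth, with a counting error of 14.3% at the lowest library.

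Counts of genes called moved by over 1.5 times, chiefly with array weights or only the compared groups: from 749 to 6104 (1760 in the reported fit) for salt in line 1, 696 to 3021 (1770) for salt in line 2, 1685 to 6101 (2570) for line 2 and 1416 to 7988 (2386) for line 1 against WT without salt, 3327 to 6336 (5125) for line 2 and 2004 to 6147 (3267) for line 1 against WT under salt, and 40 to 1005 (355) under salt and 8 to 400 (30) without for line 2 against line 1. Scaling to the gene total took the higher share of calls to 20.9% (48.9% in the reported fit) for salt in line 2 and to 73.7% (57.4%) for line 2 against WT without salt. Quantile normalization took it to 44.8% (59.4%) and 49.9% (70.2%) for line 2 and line 1 against WT under salt, and to 52.1% (63.1%) for line 1 without.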
